A study of Mus musculus with 69 samples.

Results

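The genes described here are 9 complement components and receptors, C1qa, C1qb, C1qc, C2, C3, C4b, Cfb, C3ar1 and C5ar1, of the 24523 gene symbols with counts in kidneys of female NZB/W F1 mice. They were taken by symbol, and all 9 were listed and had enough reads to be tested in every comparison. NZB/W F1 mice develop a spontaneous lupus-like glomerulonephritis. Kidney RNA was sequenced in young mice of 12 weeks, in nephritic mice of 30 to 45 weeks with fixed proteinuria over 300 mg/dl, and in mice of 36 to 50 weeks in remission. Remission mice had become nephritic, had received cyclophosphamide at 50 mg/kg with 6 doses of CTLA4Ig (200 ug) and anti-CD40L (250 ug), and were collected 8 weeks after induction with proteinuria at or below 30 mg/dl. The 30 young and 27 nephritic mice were collected at 6 Zeitgeber times, ZT0 being lights on and ZT12 lights off, in cells of 3 to 7 mice. The 8 remission mice were collected at ZT0 (4 mice) and ZT12 (4 mice). Each library came from a perfused whole kidney of 1 mouse, so fewer cells of a type and less RNA per cell cannot be told apart. Young and nephritic mice also differed in age, and age cannot be told apart from nephritis in that comparison. Every remission mouse was drug-treated, so treatment cannot be told apart from remission.

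Complement is a cascade of plasma proteins that tags immune complexes and cell surfaces. C1q, built from the chains encoded by C1qa, C1qb and C1qc, binds antibody in immune complexes and starts the classical pathway. C4b and C2 encode the proteins that form its C3 convertase, Cfb encodes factor B, which forms the C3 convertase of the alternative pathway, and C3 is the component on which the pathways meet. Cleavage of C3 and C5 releases the fragments C3a and C5a, which act on myeloid cells through the receptors encoded by C3ar1 and C5ar1. Macrophages are a known source of C1q, whereas the liver makes most of the circulating C3, C4 and factor B, and kidney epithelium also expresses these genes. Deposits of C1q, C3 and C4 in glomeruli are a hallmark of lupus nephritis.

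Several facts about the libraries bear on these genes. Library totals ranged from 25257530 to 35744843 counts in young, from 26596500 to 48075977 in nephritic and from 13311278 to 21849912 in remission mice. The 3 young mice ZT8LU, ZT16RU and ZT16LL had summed liver markers (Alb, Apoa1, Ttr and Fgb) of 12255.1, 11430.8 and 10875.5 CPM (counts scaled to a common library size), whereas the other 27 young mice had between 103.6 and 2385.7 CPM. The main results on C3, C4b and Cfb that rest on these mice are therefore also given without them, a choice made after their values were seen. Young and nephritic mice came from RNA-seq set 1 (6 young and 5 nephritic mice, ZT0 and ZT12 only) and set 2, and the remission mice formed a run of their own that also held repeat libraries of 4 mice. The repeat library of nephritic mouse RX11RU was closer to the original library of RX11LU than to its own, and remission mouse s9, labelled ZT12, had the clock gene Arntl at 27.1 CPM, whereas the ZT0 remission mice had 23.1 to 28.8 CPM and the other ZT12 remission mice 3.20 to 4.90 CPM. In every group the markers of kidney tubules were abundant, with a median sum of 9826.1 CPM for 4 proximal tubule markers in young and 5617.6 CPM in nephritic mice. All 4 of those markers were lower in nephritic mice.

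The C1q genes lie side by side on chromosome 4 (GRCm38, 136880129 to 136898803, minus strand) within 18.68 kb. C4b, Cfb and C2 lie within 169.9 kb of the major histocompatibility region of chromosome 17 (34728380 to 34898265, minus strand), and the ends of Cfb and C2 are 85 bases apart. C3 lies apart from them on chromosome 17 (57203970 to 57228136), C3ar1 on chromosome 6 (122847138 to 122856161) and C5ar1 on chromosome 7 (16246743 to 16259540), all on the minus strand. C4b has a near-identical neighbour, C4a, so its counts rest on how reads were split. C4a held a median of 20.98% of the summed C4a and C4b counts in young, 4.68% in nephritic and 7.19% in remission mice.

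RefSeq promoter entries (GRCm38.p6) matched 5 of the 9 genes, C1qb, C1qc, C3, C3ar1 and C5ar1. The 250 bases before the start were searched on both strands for GAS (TTCNNNGAA), ISRE (GAAA, any 2 bases, GAAA), NF-kB (GGG, any 2 bases, TTTCC), E-box (CACGTG), PU.1 (GAGGAAGT) and C/EBP (TTGCNNAA) letters. The windows of C1qb, C3 and C3ar1 are printed because these genes stand for the initiator, the central component and the receptors in the results that follow. Capitals mark a motif match. The windows are chr4:136886201-136886450, chr17:57228137-57228386 and chr6:122856158-122856407, on the minus strand.
C1qb: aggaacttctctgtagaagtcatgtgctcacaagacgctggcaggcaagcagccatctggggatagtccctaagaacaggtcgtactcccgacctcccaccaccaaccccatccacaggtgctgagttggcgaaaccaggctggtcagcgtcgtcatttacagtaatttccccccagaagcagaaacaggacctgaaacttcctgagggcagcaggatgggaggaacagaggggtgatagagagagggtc
C3: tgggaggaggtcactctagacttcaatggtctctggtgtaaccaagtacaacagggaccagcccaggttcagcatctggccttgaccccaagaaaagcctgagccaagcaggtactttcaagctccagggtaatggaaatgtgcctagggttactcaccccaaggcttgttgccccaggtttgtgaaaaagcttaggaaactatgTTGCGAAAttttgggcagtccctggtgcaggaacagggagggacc
C3ar1: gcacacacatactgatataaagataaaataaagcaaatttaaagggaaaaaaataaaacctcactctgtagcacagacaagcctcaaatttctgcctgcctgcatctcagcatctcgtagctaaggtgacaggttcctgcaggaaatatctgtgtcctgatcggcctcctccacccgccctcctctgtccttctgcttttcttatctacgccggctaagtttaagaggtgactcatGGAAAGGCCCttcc

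The C3 window held C/EBP letters at bases -45 to -38 from the start, and the C3ar1 window held NF-kB letters at -14 to -5. The C1qc window held PU.1 letters (ACTTCCTC) at -195 to -188, and none of the 6 motifs was found in the windows of C1qb and C5ar1. Of 32851 promoters of the same length, 9.56% held the C/EBP, 1.41% the NF-kB and 2.44% the PU.1 letters. GAS letters were in 7.02%, ISRE letters in 2.98% and E-box letters in 6.02% of them, and in none of the 5 windows.

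Levels were first compared between the genes per kilobase of exon. The length was that of all annotated exons of a gene (1040 bases for C1qa, 1088 for C1qb and 1931 for C1qc), not of the transcript expressed. The order depends on these lengths. Before scaling, the young means were 25.03 CPM for C1qa, 14.29 for C1qb and 16.06 for C1qc. In young kidneys Cfb was highest at 88.8 ± 13.2 CPM per kb (SD, n = 30), and its lowest mouse (72.5) was above the highest mouse of every gene but C3. C3 followed at 39.2 ± 60.6 and C1qa at 24.1 ± 4.75 CPM per kb, and the range of C3 (9.58 to 235.5) covered that of C1qa. C2 (14.5 ± 1.46) and C1qb (13.1 ± 2.17) overlapped, then came C1qc (8.32 ± 1.39) and C4b (5.92 ± 6.68), which also overlapped. The receptors were lowest, C3ar1 at 0.420 ± 0.108 and C5ar1 at 0.264 ± 0.0973 CPM per kb, with overlapping ranges. Without the 3 mice of high liver markers the young means were 85.2 ± 6.99 for Cfb (n = 27), 19.9 ± 13.1 for C3, now below C1qa (23.6 ± 4.54), and 3.76 ± 1.18 CPM per kb for C4b.

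In nephritic kidneys the order changed. C1qa was highest at 160.5 ± 103.3 CPM per kb (SD, n = 27), before C1qb (100.3 ± 62.4), Cfb (81.5 ± 8.99), C3 (73.7 ± 72.7) and C1qc (63.7 ± 40.5), and the ranges of these neighbours overlapped. C4b (23.2 ± 12.8) and C2 (14.1 ± 1.56) also overlapped, and the receptors stayed lowest at 3.40 ± 2.01 for C3ar1 and 1.49 ± 0.652 CPM per kb for C5ar1. In remission kidneys C1qa (153.0 ± 93.2, n = 8) and C1qb (93.8 ± 58.6) were again above Cfb (68.6 ± 9.59), with overlapping ranges, and C3 (29.3 ± 18.1) stood below C1qc (47.9 ± 30.3 CPM per kb), also with overlap.

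**Figure D1:**
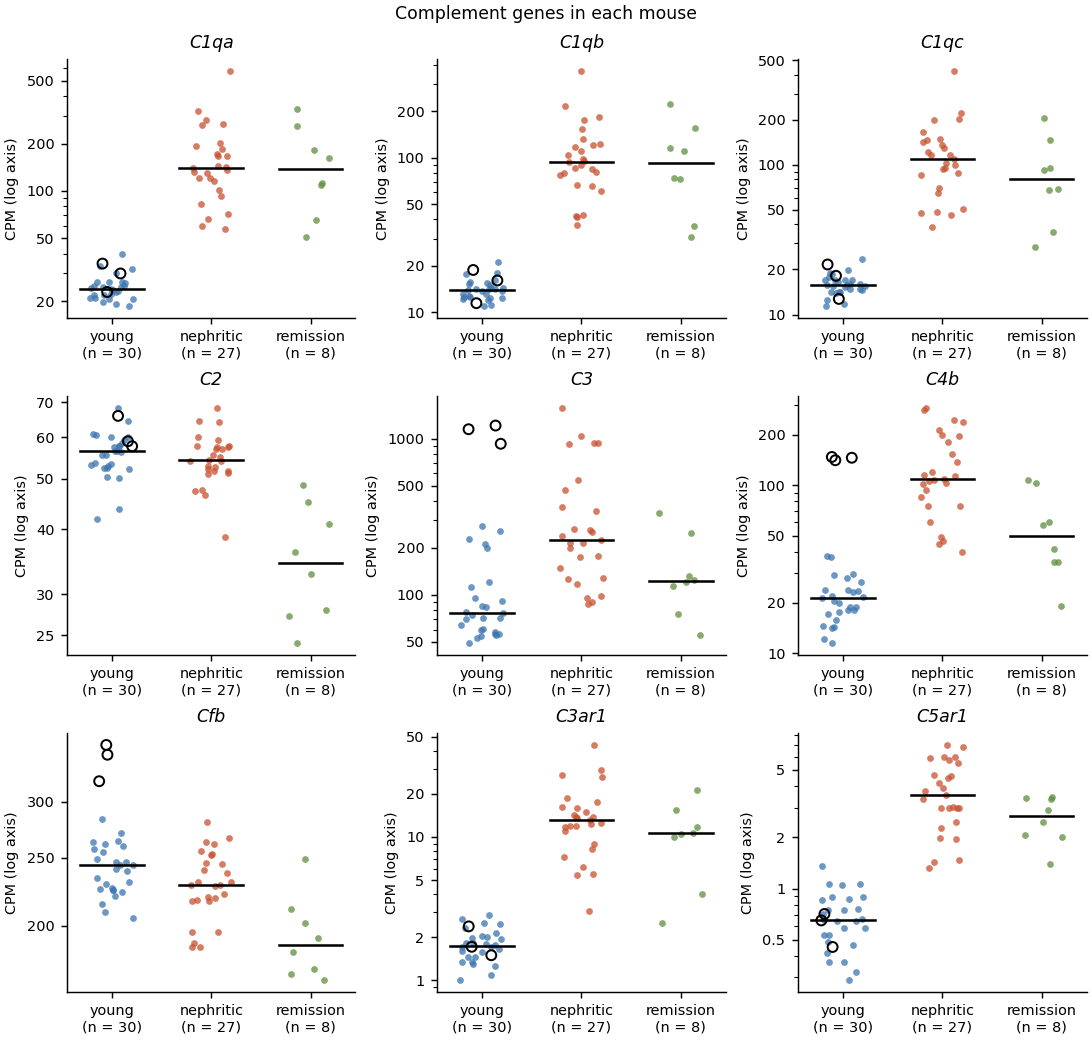
Level of each of the 9 genes in every mouse (CPM, log axis; points are mice, bars are group medians, open circles are the 3 young mice of liver markers over 10000 CPM) in young, nephritic and remission kidneys. The C1q genes and C3ar1 show no overlap between young and nephritic mice, C2 and Cfb overlap, and the open circles stand out in C3, C4b and Cfb.

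The first comparison asked how nephritic kidneys differ from young kidneys over the day. The initiator C1q rose in step across its genes, both anaphylatoxin receptors rose, C4b and C3 rose, C2 did not pass the test, and Cfb was slightly lower. In all, 7 of the 9 genes were higher and 1 was lower by edgeR's quasi-likelihood test at an adjusted p of at most 0.05 over all genes. Of all 17521 genes tested, 28.1% were higher and 33.9% were lower. The median log2 fold change was 2.48 over the 9 genes and -0.03 over all genes.

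C1qa was between 18.6 and 39.8 CPM in young mice (median 23.9) and between 57.6 and 578.8 CPM in nephritic mice (median 140.3). This was a log2 fold change of 2.64 (SE 0.14, adjusted p = 5.1e-22, edgeR). Every nephritic mouse was above every young mouse.

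C1qb was between 11 and 21.3 CPM in young (median 14.04) and between 36.5 and 365.2 CPM in nephritic mice (median 93.3), with a log2 fold change of 2.84 (SE 0.14, adjusted p = 2.7e-23). C1qc was between 11.4 and 23.3 CPM in young (median 15.7) and between 38.7 and 425.8 CPM in nephritic mice (median 110.3), with a log2 fold change of 2.84 (SE 0.14, adjusted p = 5e-23). The groups did not overlap for either gene. Such a complete separation upwards was seen in 0.885% of the 17521 genes tested and downwards in none of them, and 4 of the 9 genes, the C1q genes and C3ar1, were among them. Nephritic mouse RX7LU was lowest and HIL5RU highest for all 3 C1q genes and for C3ar1.

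C3ar1, the receptor for C3a, was between 1.01 and 2.85 CPM in young (median 1.74) and between 3.06 and 43.8 CPM in nephritic mice (median 13.2). Its log2 fold change of 2.97 (SE 0.16, adjusted p = 1.2e-21) was the highest of the 9. C5ar1, the receptor for C5a, was between 0.289 and 1.36 CPM in young (median 0.651) and between 1.32 and 7.02 CPM in nephritic mice (median 3.58). Its log2 fold change was 2.48 (SE 0.16, adjusted p = 1.4e-19), and 26 of the 27 nephritic mice were above the 27 young mice without high liver markers. C5ar1 rested on few reads, from 7 to 41 counts per library in young mice.

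C4b was between 11.5 and 147.1 CPM in young (median 21.4) and between 40.1 and 288.0 CPM in nephritic mice (median 109.3), with a log2 fold change of 2.21 (SE 0.24, adjusted p = 5.5e-11). C3 was between 49.3 and 1211.1 CPM in young (median 77.0) and between 87.5 and 1570.9 CPM in nephritic mice (median 225.9). Its log2 fold change was 1.23 (SE 0.40, adjusted p = 0.00625), and the groups overlapped over most of their range.

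C2 was between 41.9 and 68.2 CPM in young (median 56.5) and between 38.6 and 68.3 CPM in nephritic mice (median 54.2). The log2 fold change was -0.05 (95% interval -0.12 to 0.02, adjusted p = 0.254), so a rise or fall of the size seen for the other classical pathway genes lay outside its interval. Cfb was between 204.9 and 361.6 CPM in young (median 244.0) and between 186.7 and 281.4 CPM in nephritic mice (median 228.7). It was lower by a log2 fold change of -0.13 (SE 0.04, adjusted p = 0.003), a small difference between overlapping groups that did not pass the test in set 2 alone (-0.08, adjusted p = 0.132).

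**Figure D2:**
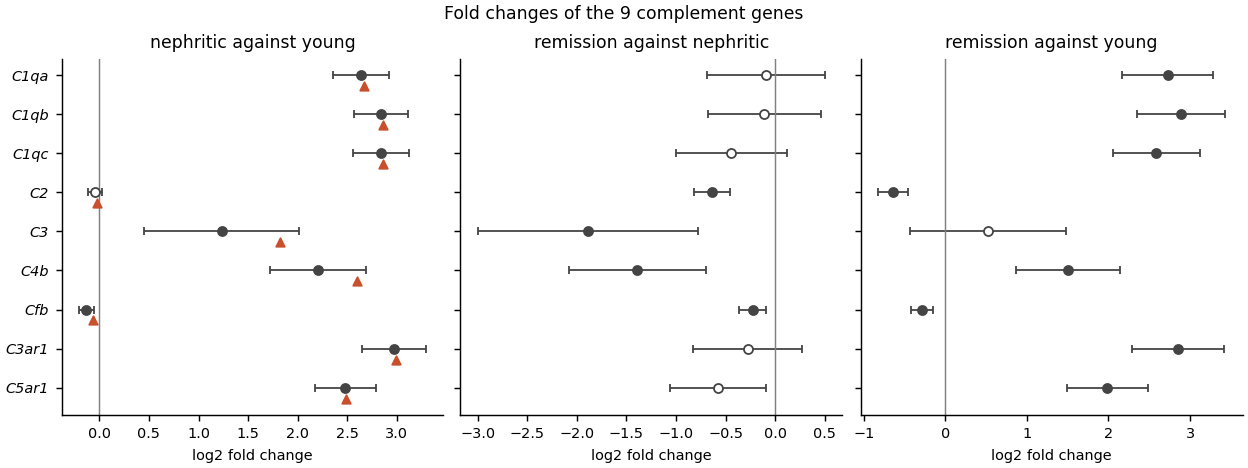
Log2 fold change of each gene (circles, with 95% intervals, filled at an adjusted p of at most 0.05; triangles give the values without the 3 mice of high liver markers) in nephritic against young mice over the day, remission against nephritic mice and remission against young mice. In nephritic against young mice the C1q genes and receptors lie between 2.48 and 2.97 and C2 and Cfb lie near 0. In remission against nephritic mice every gene lies below 0, and C2, C3, C4b and Cfb are filled.

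Markers of macrophages moved with the C1q genes and the receptors. Of the 7 macrophage markers Adgre1, Csf1r, Cd68, Lyz2, Cx3cr1, Mertk and Aif1, 6 were higher and 1 (Mertk, log2 fold change -0.36) was lower in nephritic mice, with a median log2 fold change of 2.55. Their summed level was 134.9 to 239.4 CPM in young, 236.1 to 857.3 CPM in nephritic and 271.8 to 535.4 CPM in remission mice, and none was at 0. All 5 B and plasma cell markers and all 4 T cell markers were also higher in nephritic mice. The part of these cells in the results on complement genes was not tested.

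The young mice with high liver markers carried the highest C3, C4b and Cfb levels of their group. In ZT8LU, ZT16RU and ZT16LL, C3 was 1211.1, 1147.2 and 925.8 CPM, while the other 27 young mice were between 49.3 and 276.1 CPM (median 74.1). C4b was 147.1, 145.5 and 140.6 CPM in the 3 mice and between 11.5 and 37.7 CPM in the others (median 20.5). Cfb was 361.6, 321.1 and 350.2 CPM in the 3 mice and between 204.9 and 284.0 CPM in the others (median 240.8). C1qa, C1qb, C1qc, C2, C3ar1 and C5ar1 in the 3 mice lay within the range of the other young mice.

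Without these 3 mice the contrast between young and nephritic kidneys was larger for C3 and C4b and was lost for Cfb. C3 then had a log2 fold change of 1.82 (adjusted p = 5.3e-07) and C4b of 2.60 (adjusted p = 6.2e-18), whereas Cfb differed by -0.07 (adjusted p = 0.0879). C4b then separated the groups completely, with the lowest nephritic mouse at 40.1 CPM and the highest of the other young mice at 37.7 CPM. The 3 mice left out held the highest C4b of the young mice, and the share of all genes separated in this split was not computed. C3 was above every other young mouse in 9 of 27 nephritic mice. In set 2 alone C3 did not pass the test with the 3 mice in the fit (log2 fold change 0.65, adjusted p = 0.174), and it passed without them (1.38, adjusted p = 9.4e-05).

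**Figure D3:**
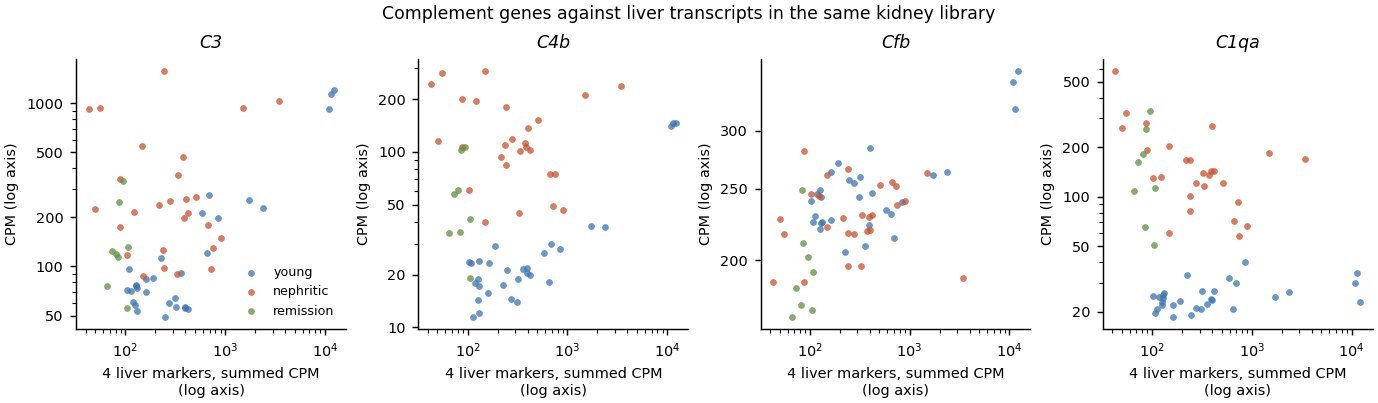
C3, C4b, Cfb and C1qa level of each mouse against the summed level of 4 liver markers (both in CPM, log axes; colours mark young, nephritic and remission mice). ZT8LU, ZT16RU and ZT16LL lie at the right with C3 between 925.8 and 1211.1 CPM, and the nephritic mice HIL5RU and HIL5LL reach C3 of 923.6 and 942.3 CPM with liver markers of 42.8 and 55.6 CPM.

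High C3 in nephritic mice was found with both low and high liver markers. The highest C3, 1570.9 CPM in nephritic mouse CRS60, came with Alb at 128.6 CPM. HIL5LL had C3 at 942.3 CPM and HIL5RU at 923.6 CPM, with Alb at 6.59 and 2.26 CPM. RX10LU (1031.5 CPM) and RX12RU (933.5 CPM) had Alb at 3077.9 and 1231.8 CPM. The liver markers of the 27 nephritic mice summed to between 42.8 and 3456.5 CPM (median 279.6), and 1 of the 4 was lower in nephritic than in young mice.

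The next question was whether the differences held at each time of day. C1qa, C1qb, C1qc, C3ar1 and C5ar1 were higher in nephritic mice at 6 of 6 time points, with log2 fold changes of 2.29 to 3.01, 2.49 to 3.26, 2.43 to 3.29, 2.30 to 3.59 and 1.61 to 3.01. C4b passed at 4 of 6 and C3 at 2 of 6 time points, and C2 and Cfb at none. The number of the 9 genes that were higher was 7 at ZT0, 6 at ZT4, 5 at ZT8, 7 at ZT12, 5 at ZT16 and 6 at ZT20. Over all genes, 20.1% were higher at ZT0, 13.9% at ZT4, 2.83% at ZT8, 25.8% at ZT12, 10.1% at ZT16 and 4.56% at ZT20. None of the 9 was lower at any time point by edgeR or DESeq2, where 19.4% of all genes were lower at ZT0, 16.4% at ZT4, 0.833% at ZT8, 24.2% at ZT12, 7.66% at ZT16 and 0.919% at ZT20, and at unadjusted p Cfb passed below 0.05 at ZT8 (p = 0.0066) and ZT16 (p = 0.04) and C2 at ZT8 (p = 0.012).

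The calls on C3 varied between time points, but a different rhythm was not shown for it (adjusted p = 0.062, edgeR). C3 was higher at ZT0 (log2 fold change 2.93, SE 0.67, adjusted p = 0.00062) and at ZT12 (1.64, SE 0.70, adjusted p = 0.0457). The ZT12 call was lost when any of 12 mice was left out (lowest value 1.36) and in set 2 alone (0.13, adjusted p = 0.92). At ZT8 and ZT16 the values were -0.95 (adjusted p = 0.621) and -0.94 (adjusted p = 0.498).

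At ZT8 the young values were 56.3, 59.9, 56.5 and, in ZT8LU, 1211.1 CPM, and the nephritic values were 129.0, 149.4, 258.7 and 178.5 CPM. All 4 nephritic mice were thus above 3 of the young mice. At ZT16 the young values were 85.1, 255.9 and, in ZT16RU and ZT16LL, 1147.2 and 925.8 CPM, and the nephritic values were 174.2, 546.5 and 225.9 CPM. Without the mice of high liver markers the log2 fold change turned to 1.67 at ZT8 (adjusted p = 0.36) and 0.92 at ZT16 (adjusted p = 0.536).

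C4b missed the test at the same time points. At ZT8 the young values were 18.9, 14.5, 20.5 and, in ZT8LU, 147.1 CPM, and the nephritic values were 75.3, 46.5, 137.6 and 75.01 CPM. The log2 fold change was 0.73 (adjusted p = 0.557) with ZT8LU and 2.25 (adjusted p = 0.00582) without the mice of high liver markers. At ZT16 it was 0.95 (adjusted p = 0.262) with them and 2.37 (adjusted p = 0.00762) without them.

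**Figure D4:**
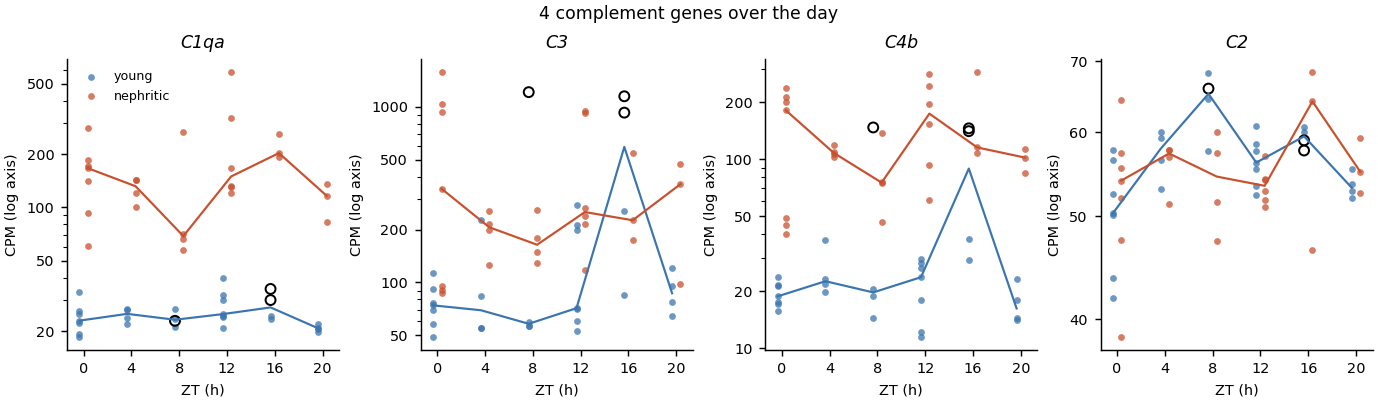
Level of C1qa, C3, C4b and C2 (CPM, log axes) against Zeitgeber time in hours in young and nephritic mice, with points for mice, lines for the medians of each time point and open circles for the 3 young mice of high liver markers. C1qa stays apart at all 6 times, the young median of C3 reaches 590.9 CPM at ZT16, where 2 of the 4 mice are open circles, and the young median of C2 runs from 50.3 CPM at ZT0 to 65.2 CPM at ZT8.

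Variation over the day was then tested within each group. In young mice 6 of the 9 genes differed between time points, C1qa (adjusted p = 0.0277), C1qb (0.0363), C2 (0.00603), C3 (0.0162), C4b (0.00379) and Cfb (0.00175), beside 39.8% of all genes. Without the mice of high liver markers 3 passed, C1qa (0.044), C2 (0.02) and Cfb (0.023), and in set 2 without them none passed, C2 being nearest at 0.0508. Of all genes, 6583 passed in the main fit and 4178 in set 2 without those mice. The calls on C1qa and C1qb were also lost with no set covariate (0.114 and 0.104) and in set 2 alone (0.0838 and 0.0834). Leaving out ZT12LU, ZT120 or ZT20LU ended the call on C1qa (highest adjusted p = 0.0695), any of 9 mice of 30 that on C1qb (highest 0.0744), and ZT16RU or ZT16LL that on C3 (highest 0.0681). With a 24 h cosine in place of the time points 1 passed, C2, with an amplitude of 0.12 log2 units (SE 0.03) and a fitted peak at ZT 9.96 h. Young mice had a mean C2 of 50.4 ± 5.95 CPM at ZT0 (SD, n = 7) and 64.0 ± 4.58 CPM at ZT8 (n = 4), and 52.8 ± 8.12 (n = 7) and 54.1 ± 5.68 CPM (n = 4) in nephritic mice.

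In nephritic mice none of the 9 genes differed between time points by edgeR or DESeq2, and none had an unadjusted p below 0.05 (lowest p = 0.12 for C1qc), while 21.6% of all genes passed. Mouse RX10RU decided this for the C1q genes and C3ar1. At ZT8, C1qa was 57.6, 66.5 and 71.1 CPM in the other mice and 267.4 CPM in RX10RU. Without RX10RU, C1qa (adjusted p = 0.0161), C1qb (0.0081), C1qc (0.0111) and C3ar1 (0.0181) differed between time points. The share of all genes that passed in the fit without RX10RU is not given. C1qa then ran from 57.6 to 71.1 CPM at ZT8 to 193.4 to 260.5 CPM in the 3 mice at ZT16.

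The difference in rhythm between nephritic and young mice was not shown for any of the 9 genes by edgeR (6.27% of all genes passed). At an unadjusted p below 0.05 there were 2, C3 (p = 0.005, adjusted p = 0.062) and C4b (p = 0.012, adjusted p = 0.0926), and DESeq2 called C3 (adjusted p = 0.0181). Leaving out 1 of 8 mice in turn also took C3 past the threshold (lowest adjusted p = 0.0417). Without the 3 mice of high liver markers the adjusted p was 0.42 for C3 and 0.719 for C4b. Without RX10RU the difference passed for C1qb (0.0471), C1qc (0.0401) and C3ar1 (0.0131), and the share of all genes in that fit is not given. C2 moved in young but not in nephritic mice by the tests within each group, and the test of the difference gave an adjusted p of 0.358.

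Remission kidneys were compared with nephritic kidneys at ZT0 and ZT12, where 14 young, 13 nephritic and 8 remission mice entered the fit. C1q genes and C3ar1 did not pass the test, while C2, C3, C4b and Cfb were lower. By edgeR 4 of the 9 genes were lower and none was higher, none had an unadjusted p below 0.05 upwards and DESeq2 gave the same counts, and 20.5% of 16841 genes were lower and 17% higher. None of the 9 separated the groups completely, which 1.16% of genes did upwards and 2.66% downwards. The median log2 fold change over the 9 was -0.44 and over all genes -0.02. The remission run cannot be told apart from remission in the original libraries.

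C1qa was 50.9, 108.9, 113.0 and 181.5 CPM in remission mice at ZT0 and 65.0, 162.6, 257.9 and 332.9 CPM at ZT12, against 60.3 to 578.8 CPM (median 166.4) in the 13 nephritic mice. The remission values lay almost wholly within the nephritic range. The log2 fold change was -0.09 (95% interval -0.69 to 0.50, adjusted p = 0.836). For C1qb it was -0.11 (interval -0.68 to 0.46, adjusted p = 0.795), for C1qc -0.44 (-1.0 to 0.12, adjusted p = 0.225) and for C3ar1 -0.28 (-0.83 to 0.27, adjusted p = 0.461). Within the remission run the values were -0.002 for C1qa, -0.08 for C1qb, -0.26 for C1qc and -0.68 for C3ar1, and none passed. Without the RX11RU repeat, which left 1 nephritic library, they were -0.56, -0.68, -0.81 and -1.04. Of the 7 macrophage markers, 1 was higher and 6 did not pass between remission and nephritic mice.

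C3 was 55.8, 75.8, 132.5 and 120.0 CPM in remission mice at ZT0 and 114.1, 249.7, 332.2 and 125.1 CPM at ZT12, against 87.5 to 1570.9 CPM (median 265.6) in nephritic mice. This gave a log2 fold change of -1.89 (SE 0.57, adjusted p = 0.00923). C4b was 19.2 to 107.3 CPM (median 49.8) in remission and 40.1 to 280.4 CPM (median 180.9) in nephritic mice, with a log2 fold change of -1.39 (SE 0.35, adjusted p = 0.0024). Both genes overlapped between the groups. Within the remission run, against the repeat libraries of 2 nephritic mice, C3 differed by -2.47 (adjusted p = 0.0118) and C4b by -1.84 (adjusted p = 0.0237). Those 2 mice were RX11RU, whose repeat went against its label, and RX12RU, which had high C3 in both its libraries (933.5 and 1137.4 CPM).

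C2 was 32.7, 24.2, 36.1 and 27.2 CPM in remission mice at ZT0 and 48.7, 44.98, 40.9 and 27.9 CPM at ZT12, against 38.6 to 64.4 CPM (median 54.0) in nephritic mice. This gave a log2 fold change of -0.64 (SE 0.09, adjusted p = 2.8e-06). C2 moved by -0.03 to 0.06 log2 units between the original and the repeat library of the same mouse. Cfb was 167.5 to 249.1 CPM (median 187.9) in remission and 186.7 to 263.0 CPM (median 222.2) in nephritic mice, with a log2 fold change of -0.23 (SE 0.07, adjusted p = 0.00894). Within the remission run C2 differed by -0.79 (adjusted p = 0.0164) and Cfb by -0.33 (adjusted p = 0.0966).

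C5ar1 was near the threshold. It was 1.39 to 3.49 CPM (median 2.68) in remission and 1.97 to 6.79 CPM (median 4.48) in nephritic mice, with a log2 fold change of -0.58 (SE 0.25, adjusted p = 0.0639). It passed with the run as a covariate (-1.10, adjusted p = 0.0112) and within the remission run (-1.13, adjusted p = 0.0211), and repeat libraries were 0.21 to 0.78 log2 units above the originals of the same mice. The fit with the run as a covariate took the repeat libraries and the originals of the same mice as separate samples.

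Leaving out s9, whose Arntl level went against its time label, changed none of the calls on the 9 genes (log2 fold changes of -0.59 for C2, -1.84 for C3, -1.37 for C4b and -0.21 for Cfb). The C2 level of s9, 27.9 CPM, lay among the ZT0 remission mice (24.2 to 36.1 CPM) and not among the other ZT12 remission mice (40.9 to 48.7 CPM). Without RX11RU, a choice made after its values were seen, C5ar1 also passed (-0.63, adjusted p = 0.0483 by edgeR).

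Liver markers also differed in this comparison. They summed to between 66.0 and 106.8 CPM in remission mice, and 3 of the 4 were lower than in nephritic mice, with none at 0. With the summed liver markers as a covariate, 1 of the 9 genes stayed lower, C2. Of all genes, 3451 were lower in the main fit and 2187 with the covariate. C3 then differed by -0.74 (adjusted p = 0.398), C4b by -1.05 (adjusted p = 0.056) and Cfb by -0.21 (adjusted p = 0.0646). All 4 endothelial markers were higher in remission than in nephritic mice (median log2 fold change 0.68) and all 4 adrenal markers were lower (median -5.50). The endothelial sum was 268.3 to 356.7 CPM in remission and 92.6 to 272.4 CPM in all 27 nephritic mice, and the adrenal sum 4.01 to 9.31 and 5.61 to 1129.6 CPM, with no marker at 0. The adrenal sum of 1129.6 CPM was that of nephritic mouse RX10LU, and the next highest was 11.9 CPM in RX10RU. The median adrenal sum was 6.73 CPM in nephritic and 5.77 CPM in remission mice. The part of the endothelial and adrenal markers in the results on the 9 genes was not tested.

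Relative to C1qa of the same mouse, C3 and C4b had lower means in remission. The log2 ratio of C3 to C1qa in CPM was -0.05 ± 0.46 in remission (SD, n = 8) and 0.99 ± 1.14 in nephritic mice (n = 13). The log2 ratio of C4b to C1qa was -1.43 ± 0.24 in remission and -0.41 ± 0.72 in nephritic mice. The ranges overlapped, at -0.60 to 0.81 in remission and -0.63 to 3.24 in nephritic mice for C3 and at -1.65 to -0.89 and -1.64 to 0.57 for C4b. No test of the ratios is given, since they were chosen after the levels were seen.

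Against young mice of the same times, remission mice had higher levels of 6 genes and lower levels of 2, beside 21.2% of all genes higher and 20.4% lower. The log2 fold change was 2.72 for C1qa (SE 0.28, adjusted p = 6e-09), 2.89 for C1qb (SE 0.28, adjusted p = 1.4e-09) and 2.59 for C1qc (SE 0.27, adjusted p = 6.3e-09). C3ar1 was higher by 2.85 (SE 0.28, adjusted p = 3e-09), C5ar1 by 1.99 (SE 0.25, adjusted p = 1.9e-07) and C4b by 1.51 (SE 0.33, adjusted p = 0.00042). C3 differed by 0.52 (95% interval -0.43 to 1.47, adjusted p = 0.407). All 4 liver markers were lower in remission than in young mice, and with their summed level as a covariate C3 passed (1.44, adjusted p = 0.0326), while the calls on the other 8 genes did not change. C2 differed by -0.64 (SE 0.09, adjusted p = 1.7e-06) and Cfb by -0.28 (SE 0.07, adjusted p = 0.00125), so both were below young as well as nephritic mice. Age, drug treatment and run cannot be told apart from remission in this comparison of original libraries.

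The C1q genes and C5ar1 did not overlap between young and remission mice, which was the case upwards for 3.30% of genes and downwards for 4.22%. C1qa, for example, was at most 39.8 CPM in the 14 young mice and at least 50.9 CPM in remission mice. Within the remission run, which held 2 young mice, the fold changes were of like size (2.59 for C1qa, 2.78 for C1qb, 2.64 for C1qc and 2.92 for C3ar1). Adjusted p for these genes lay between 0.054 and 0.0608 by edgeR. C4b (1.74, adjusted p = 0.134), C2 (-0.59, adjusted p = 0.111), Cfb (-0.24, adjusted p = 0.321) and C3 (0.85, adjusted p = 0.469) did not pass either. Thus 1 gene, C5ar1, passed, beside 170 of all genes higher and 341 lower.

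The genes were then compared with each other over the 27 nephritic mice, by log2 CPM. Of 36 pairs, 24 passed a two-sided permutation test with 100000 resamples after adjustment over the 36, 22 of them positive, and 22 passed in the 22 set 2 mice. Set 1 held 5 nephritic mice, too few for a correlation of its own. C1qa followed C1qb (Pearson r = 0.99, Spearman rho = 0.99, permutation p = 1e-05, adjusted 3e-05), C1qc (r = 0.99) and C3ar1 (r = 0.93, rho = 0.89, permutation p = 1e-05, adjusted 3e-05). The p of 1e-05 is the smallest that these permutations can give. Without the 2 mice farthest from the median, r was 0.99 for C1qa with C1qb and 0.91 with C3ar1.

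C3 and C4b had r = 0.84 (rho = 0.85, permutation p = 1e-05, adjusted 3e-05, and r = 0.85 without the 2 farthest mice), whereas C3 and C1qa had r = 0.64 (rho = 0.65, permutation p = 0.00026, adjusted 0.00055, and r = 0.57). The difference between these correlations was not tested. In set 2 the values were 0.81 and 0.58. Cfb followed C2 (r = 0.57, rho = 0.50, permutation p = 0.0018, adjusted 0.0031, and r = 0.43 without the 2 farthest mice), and the 2 negative pairs that passed were Cfb with C5ar1 (r = -0.47, adjusted 0.021) and with C1qa (r = -0.42, adjusted 0.045). Both lost their call in set 2 (r = -0.38 and -0.08), and Cfb with C1qa fell to -0.29 without the 2 farthest mice.

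**Figure D5:**
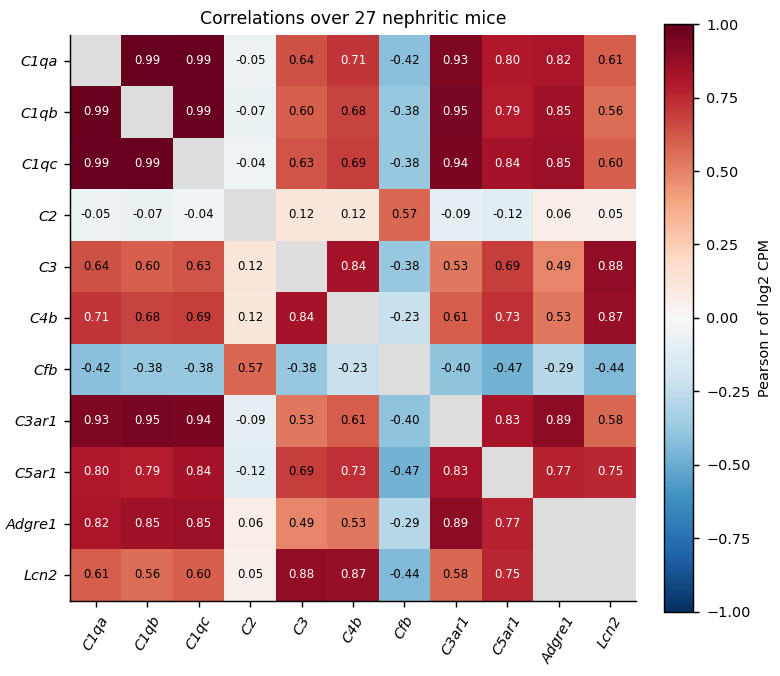
Pearson r between the 9 genes, and with Adgre1 and Lcn2, over 27 nephritic mice (log2 CPM; colour and printed value give r). The C1q genes and C3ar1 form a block with r of 0.93 and above, C3 and C4b pair with each other and with Lcn2, and Cfb is negative with all but C2.

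Each gene was also set beside the macrophage marker Adgre1 and the tubular injury marker Lcn2, and 15 of these 18 pairs passed. The share of other genes that would pass with Adgre1 or Lcn2 was not computed. C1qa had r = 0.82 with Adgre1 (rho = 0.74, permutation p = 1e-05, adjusted 2.2e-05) and r = 0.61 with Lcn2 (rho = 0.59, permutation p = 0.00069, adjusted 0.0014). C3 had r = 0.49 with Adgre1 (rho = 0.55, permutation p = 0.0087, adjusted 0.011) and r = 0.88 with Lcn2 (rho = 0.85, permutation p = 1e-05, adjusted 2.2e-05). C4b had r = 0.53 with Adgre1 (rho = 0.52, permutation p = 0.0038, adjusted 0.0052) and r = 0.87 with Lcn2 (rho = 0.86, permutation p = 1e-05, adjusted 2.2e-05). Without the 2 farthest mice r was 0.80 for C1qa with Adgre1, 0.87 for C3 with Lcn2 and 0.87 for C4b with Lcn2. In set 2 these were 0.86, 0.82 and 0.84.

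Among 14222 other genes ranked by Pearson r over the 27 nephritic mice, those nearest to C1qa were Tyrobp (r = 0.98), Cyth4 (0.98) and Pld4 (0.97). Tyrobp encodes a signalling adaptor of myeloid cells. Nearest to C3 were Sult4a1 (0.96), Kdm1a (0.95) and Arl4c (0.95). Nearest to Cfb were Errfi1 (0.68), Clip4 (0.68) and Sesn2 (0.67), a clearly weaker likeness. These values describe the 27 mice and carry no test.

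The rest of the pathway was counted from a list of 42 genes, of which 40 were tested over the day. In nephritic against young mice 16 were higher, 9 were lower and 15 did not pass, with a median log2 fold change of 0.12, beside 28.1% of all genes higher and 33.9% lower. Without the 3 mice of high liver markers 17 were higher and 5 were lower, and in set 2 without them 17 and 3. Of the 14 initiation genes tested, 4 were higher and 4 lower. Cfp, which encodes properdin, the stabiliser of the alternative convertase, rose by 1.59 (SE 0.15, adjusted p = 3.3e-13) and C1rb, a protease of the C1 complex, by 0.90 (SE 0.15, adjusted p = 5.4e-07). The 4 lower genes were Masp2 (-0.41), Mbl2 (-1.32), Colec10 (-2.24) and C4a (-0.38), with adjusted p of 0.0398, 0.00471, 0.00121 and 0.00142. Without the 3 mice of high liver markers C4a stayed lower (-0.25, adjusted p = 0.0167), and Masp2 (-0.04, adjusted p = 0.755), Mbl2 (-0.60, adjusted p = 0.0811) and Colec10 (-1.04, adjusted p = 0.0692) did not pass.

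Of the 7 terminal genes, 2 were higher and 2 lower. C7 rose by a log2 fold change of 1.80 (SE 0.20, adjusted p = 1.1e-10) and C6 by 1.52 (SE 0.29, adjusted p = 1.3e-05), and both encode parts of the membrane attack complex. C8a (-0.75, adjusted p = 0.00094) and C8g (-0.67, adjusted p = 2.6e-05), which also belong to it, were lower. Of the 12 regulators tested, 4 were higher and 3 lower. Clu, which encodes clusterin, rose by 1.34 (SE 0.23, adjusted p = 2.2e-06), from 477.5 ± 130.2 CPM in young to 1460.3 ± 1700.1 CPM in nephritic mice, and Susd4 fell by 0.32 on the log2 scale (SE 0.06, adjusted p = 2.5e-05). The other lower regulators were Cr1l (-0.10, adjusted p = 0.00256) and Vtn (-1.37, adjusted p = 0.0342). Without the mice of high liver markers Vtn did not pass (-0.64, adjusted p = 0.249), whereas C8a, C8g, Susd4 and Cr1l stayed lower. In set 2 without them C8g and Susd4 stayed lower, and C4a, C8a and Cr1l did not pass. Of the 7 receptor genes 6 were higher and none was lower. Itgam, the alpha chain of complement receptor CR3, rose by 4.46 (SE 0.19, adjusted p = 1.3e-25), from 1.22 ± 0.428 to 28.5 ± 17.3 CPM, and its beta chain Itgb2 by 2.69 (SE 0.15, adjusted p = 5.5e-22).

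In remission against nephritic mice 38 genes of the list were tested, of which 3 were higher and 13 lower, beside 17% and 20.5% of all genes. Cfp differed by -1.03 (SE 0.31, adjusted p = 0.0086), C1rb by -0.78 (SE 0.28, adjusted p = 0.0273) and Clu by -1.54 (SE 0.50, adjusted p = 0.0148), and Susd4 rose by 0.56 (SE 0.12, adjusted p = 0.00043). Of the 6 receptor genes tested, 1 was lower. Of the 13 initiation genes tested 4 were lower, and of the 12 regulators 2 were higher and 5 lower. Of the 7 terminal genes, C8a was higher (1.12, SE 0.36, adjusted p = 0.0148), and 3 were lower, Hc (-6.17), C8b (-5.03) and C9 (-2.73). With the liver markers as a covariate 4 of the list were lower, Cfp among them (-1.08, adjusted p = 0.0295), Susd4 stayed higher (0.68, adjusted p = 0.00065), and C1rb (-0.79, adjusted p = 0.0834) and Clu (-0.83, adjusted p = 0.297) did not pass. Of the terminal genes Hc stayed lower (-2.49, adjusted p = 0.032). C8a (1.02, adjusted p = 0.105), C8b (-0.21, adjusted p = 0.838) and C9 (-0.19, adjusted p = 0.82) did not pass with the covariate.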

How the data were processed

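RNA-seq was analysed from 65 original libraries, 1 per mouse, and 4 repeat libraries made with the remission mice. The authors deposited read counts per gene symbol. By the study's methods, reads of perfused kidney RNA were aligned to mm10 and uniquely aligned reads were counted, and the labels' processing notes name HISAT. Of 24538 symbols, 15 were empty in every library and left out. No per-sample column was left unused.

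Counts were tested with edgeR 4.0.16 (R 4.3.3, quasi-likelihood test, TMM factors, genes with at least 100 counts over the fit, Benjamini-Hochberg adjustment over all genes, threshold 0.05), with time point and RNA-seq set as covariates. For the set covariate the remission mice, which had a run of their own, were coded with set 2. Levels are CPM on TMM-scaled library sizes. DESeq2 1.42.0, RLE factors, no filter, no set covariate, set 2 alone, a 24 h cosine, run as covariate, the remission run alone and each mouse left out in turn were alternatives. The fit with run as covariate held both libraries of each repeated mouse, with no term for the mouse. The fits without the 3 mice of liver markers over 10000 CPM, with a liver marker covariate, and without RX11RU and RX11LU (RX11RU alone at ZT0 and ZT12) were added after seeing the data. In the fits with each mouse left out, cells of a single time point keep at least 2 mice, and the spread is shared by all cells. The scripts were tested on simulated data.

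The 9 genes, the wider list and the markers were chosen with earlier results of these data known, and 1 marker of the macrophage list is not reported here. All 9 are named, and of each role group of the wider list the 2 genes with the smallest p over the day and genes that passed against most of their group. Genes nearest to C1qa, C3 and Cfb were ranked among those with a mean of at least 1 CPM in nephritic mice. Correlations used Python 3.11.15 and scipy 1.17.1. Intervals give the uncertainty of the fitted log2 fold change, which rests on the variation between mice, and not the range of single mice. Positions come from the GRCm38 annotation and promoters from RefSeq.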

Additional observations from a re-analysis of the deposited data

Results flagged for a closer look

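In groups of 4 to 10 mice at 1 time point, the highest or lowest mouse was compared with the rest by Dixon's ratio. Of 108 groups tested (12 for each gene), 10 held such a mouse, and chance gives about 1 in 20. Nephritic mouse RX10RU at ZT8 had C1qa at 267.4 CPM (the other mice 57.6 to 71.1), C1qb at 182.9 CPM (36.5 to 42.0) and C1qc at 200.4 CPM (38.7 to 48.4). Young mouse ZT8LU, of high liver markers, had C3 at 1211.1 CPM (the others 56.3 to 59.9) and C4b at 147.1 CPM (14.5 to 20.5). The other 5 were low values. C1qc was 14.1 CPM in young mouse ZT4RU (the others 16.6 to 17.01), and C2 was 51.3 CPM in nephritic mouse RX1OLL at ZT4 (56.9 to 57.8). C3ar1 was 1.09 CPM in young mouse ZT200 at ZT20 (2.48 to 2.68) and 4.02 CPM in remission mouse s1 at ZT0 (10.02 to 10.7). C5ar1 was 0.322 CPM in young mouse ZT16LU (0.649 to 0.711).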

How the results depend on the processing

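The 7 genes higher in nephritic mice over the day were 6 or 7 under every alternative run. The 1 gene lower, Cfb, became 0 in set 2 alone, without the mice of high liver markers and in set 2 without them. Of the 6 genes that differed between time points in young mice, 1 passed with the 24 h cosine, 3 without the mice of high liver markers, 3 with the liver marker covariate and 0 in set 2 without those mice. With 1 mouse left out, the count in nephritic mice was 0 to 4 and that for a different rhythm 0 to 3, and DESeq2 called 1 for rhythm. The 4 genes lower in remission than in nephritic mice became 1 with the liver marker covariate. Of the 6 genes higher and 2 lower than in young mice, 1 and 0 passed within the remission run, with or without the repeat of RX11RU. C1qa and C1qb turned positive in remission against nephritic mice with the set 1 mice left out (0.23 and 0.17, adjusted p = 0.543 and 0.677) and with 1 mouse left out (-0.28 to 0.035 and -0.31 to 0.023). C3 turned positive at ZT8 without the mice of high liver markers (1.67), with the covariate (0.65), in set 2 without those mice (1.65) and without ZT8LU (1.63, the range with 1 mouse left out being -1.31 to 1.63), and at ZT16 under the first 3 (0.92, 2.38 and 0.90). The cause was not tested. Of all genes, 1099 had a different rhythm, against 2186 by DESeq2, 1715 in set 2, 121 with the cosine and 438, 503 and 710 in the liver marker fits. In nephritic mice 3646 differed between time points, against 5646 by DESeq2, 1994 without set and 362 with the cosine, and in young mice 6583 against 4178 in set 2 without the mice of high liver markers. Between remission and nephritic mice 2868 genes were higher and 3451 lower, against 1588 higher with the run covariate and 1613 and 1969 within the run. Against young mice 3566 were higher and 3436 lower, against 1166 and 1176 with the run covariate and 170 and 341 within the run. No paired analysis between groups was possible because each group held different mice. The pairing of original and repeat libraries was not used in the fits. C5ar1 had 7 to 41 counts in young libraries, which limits the precision of its levels.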
